A study of Mus musculus with 4 samples.

Results

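Tissue-resident memory T cells stay in an organ instead of recirculating through blood and lymph. The genes described here are 10 mouse genes linked to that state in CD8 T cells, led by Itgae, which encodes CD103, the integrin alpha chain that pairs with beta7 and binds E-cadherin on epithelial cells. The members were chosen by gene symbol. The symbols gave rows for 9 of the 10 genes, among 15367 genes in all; Zfp683, which encodes the transcription factor Hobit, was not analysed here. Values were read as FPKM, fragments scaled to transcript length and library total, although the deposited table names no unit.

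The RNA came from CD8 T cells of the liver, isolated with a cell sorter from adult C57BL/6 mice that had received an MCD diet, used to induce steatohepatitis, for 4 weeks. There were 2 libraries labelled Prf KO, from MCD-fed perforin knockout mice, and 2 libraries from MCD-fed WT mice. All 4 libraries therefore share the diet, and no group on another diet was analysed here. The labels give neither the perforin allele nor whether libraries of the same group are from different mice, so the replicate spread behind each p-value may be technical only.

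In mouse tissues, TGF-beta induces CD103 on resident CD8 T cells, and CD69 holds cells in place by removing the exit receptor S1PR1 from the surface. The liver differs from barrier organs in that many of its resident CD8 T cells patrol the sinusoids without CD103, and depend on the chemokine receptor CXCR6. CD49a, encoded by Itga1, binds collagen IV, and P2RX7 is an ATP-gated ion channel.

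Prf1, the perforin gene, had 95.4 and 98.7 FPKM in the KO-labelled libraries, against 125 and 113 FPKM in WT libraries (log2 fold change -0.29, SE 0.24, limma adjusted p = 0.873). Prf1 RNA was thus not absent from the KO-labelled libraries, and each direction below rests on the labels alone. Cd8a, the CD8 coreceptor gene, had 289 and 272 FPKM in KO-labelled libraries and 283 and 289 FPKM in WT libraries. Of 5 CD8 T cell markers, 1 was lower and 0 were higher in both KO-labelled libraries, against 21.9% and 13.9% of all tested genes. The lower one was Cd3g, with 89.4 and 114 FPKM in KO-labelled libraries and 130 and 186 FPKM in WT libraries. Cd2 overlapped, at 575 and 1185 FPKM in KO-labelled libraries and 1196 and 929 FPKM in WT libraries. KO-labelled replicate 1 stood apart, with a Pearson correlation across genes of 0.914 to 0.924 with the other libraries, which correlated with each other at 0.961 to 0.969. Depth is unknown in values of this kind, so no counting interval was computed.

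Itgae showed the widest gap of the 9 genes between the groups, and P2rx7 the next. Both were lower in both KO-labelled libraries than in either WT library. Cxcr6, Itga1, Crtam and Qpct, in contrast, had overlapping groups with nearly equal means. None of the 9 passed the test across all genes: limma called 0% of 9805 tested genes at an adjusted p under 0.05, and 4.79% had an unadjusted p under 0.05.

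**Figure D1:**
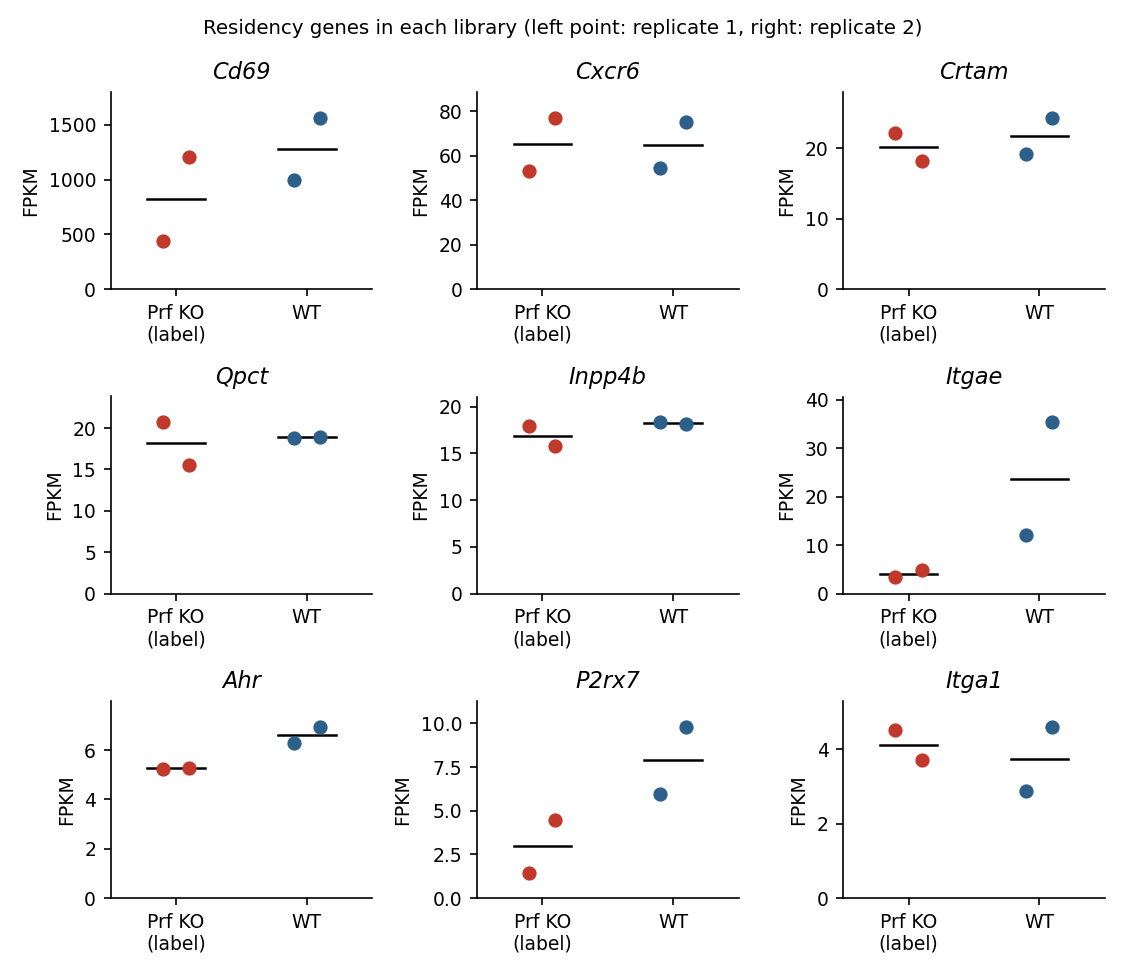
FPKM of each of the 9 residency genes in the KO-labelled libraries (red) and the WT libraries (blue), with a black line at the mean of each group and a linear axis from 0. The KO-labelled points of Itgae, P2rx7, Ahr and Inpp4b all sit under the WT points, while those of the other 5 genes overlap the WT points.

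RefSeq promoter windows (build GRCm38.p6, 250 bases before to 50 after a start site) were matched for 4 of the 10 members. Of these, 3 are shown because they represent genes with different patterns here: P2rx7, lower in both KO-labelled libraries, Cxcr6, with equal means, and Inpp4b, just under the WT values. Capitals mark matches, on either strand, to short core motifs of factors tied to residency: TGTGGT for RUNX, CAGAC for SMAD, GCGTG for AHR and TCACAC for T-box factors. Of 32851 promoter windows in the table, 16.8% hold the RUNX motif, 49.6% the SMAD motif, 32.4% the AHR motif and 14.5% the T-box motif.
P2rx7, upstream start, chr5:122643677-122643976, plus strand: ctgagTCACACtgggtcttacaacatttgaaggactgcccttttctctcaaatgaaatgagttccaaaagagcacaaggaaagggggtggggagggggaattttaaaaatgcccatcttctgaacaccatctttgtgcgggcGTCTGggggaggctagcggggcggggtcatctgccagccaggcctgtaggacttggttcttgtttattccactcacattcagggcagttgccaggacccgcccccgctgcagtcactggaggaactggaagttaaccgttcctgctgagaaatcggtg
Cxcr6, chr9:123806227-123806526, plus strand: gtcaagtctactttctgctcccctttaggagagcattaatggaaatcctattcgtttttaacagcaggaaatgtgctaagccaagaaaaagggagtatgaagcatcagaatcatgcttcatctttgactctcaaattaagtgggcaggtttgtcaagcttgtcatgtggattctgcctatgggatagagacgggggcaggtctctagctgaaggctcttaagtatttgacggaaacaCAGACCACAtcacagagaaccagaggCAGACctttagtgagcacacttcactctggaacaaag
Inpp4b, chr8:81342312-81342611, plus strand: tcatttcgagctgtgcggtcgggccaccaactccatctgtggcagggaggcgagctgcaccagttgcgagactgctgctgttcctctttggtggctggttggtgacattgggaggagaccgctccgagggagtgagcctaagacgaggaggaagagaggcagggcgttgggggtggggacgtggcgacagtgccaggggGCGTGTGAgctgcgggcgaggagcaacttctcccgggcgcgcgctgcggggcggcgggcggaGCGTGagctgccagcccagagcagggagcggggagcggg

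The upstream P2rx7 window held a T-box match 245 bases and a SMAD match 108 bases before the start. A second P2rx7 window, at a downstream start, is not shown. It held SMAD matches 239 and 15 bases and a T-box match 140 bases before that start. The Cxcr6 window held SMAD matches 13 bases before and 13 bases after the start, and a RUNX match 10 bases before it that overlaps the first of these. The Inpp4b window held AHR matches 51 bases before and 11 bases after the start, and a T-box match at 49 bases before it that overlaps the first AHR match. These matches describe the letters of the windows and are not binding sites, and the SMAD core alone occurs in 49.6% of all windows. The P2rx7 and Inpp4b windows held no RUNX match.

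Itgae had 3.51 and 4.80 FPKM in the KO-labelled libraries, against 12.1 and 35.3 FPKM in WT libraries. The groups did not overlap, and the WT libraries themselves differed 2.93-fold. The ratio of the KO-labelled mean to the WT mean was 0.175. The log2 fold change of FPKM + 1, the scale of every fold change below, was -2.09 (SE 0.47, 95% interval -3.17 to -1.02). Only 3 of the 9805 tested genes had a more negative fold change, and 14 had a smaller limma p than its unadjusted 0.00188, yet its adjusted p was 0.866. An exact two-sided permutation test of 2 libraries against 2 cannot give a p below 0.333. The fold change was -1.35 without WT replicate 2 and -2.83 without WT replicate 1, and -1.91 without KO-labelled replicate 1. Fewer CD103-bearing cells and less Itgae RNA per cell cannot be told apart in bulk RNA.

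Itgb7, which encodes the beta chain that CD103 needs to reach the surface, had overlapping groups. It had 329 and 347 FPKM in KO-labelled libraries and 307 and 384 FPKM in WT libraries (log2 fold change -0.02, SE 0.25). Itgb7 also pairs with the alpha4 chain, and its level per length far exceeded that of Itgae in every library. The ratio of Itgae to Itgb7 was 0.0107 and 0.0138 in KO-labelled libraries, against 0.0393 and 0.0920 in WT libraries. Cdh1, the gene of the CD103 ligand E-cadherin, was low throughout, at 1.51 and 2.35 FPKM in KO-labelled libraries and 0.938 and 2.29 FPKM in WT libraries.

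Itga1 had 4.51 and 3.70 FPKM in KO-labelled libraries and 2.88 and 4.60 FPKM in WT libraries, so the KO-labelled values lay within the WT range (log2 fold change 0.13, SE 0.38, limma adjusted p = 0.961). Its 95% interval, -0.75 to 1.00, does not exclude a change of either sign. Of the 2 integrin alpha genes, Itgae was the lower only in KO-labelled replicate 1. Itgae was 0.778 and 1.30 times Itga1 in KO-labelled libraries, against 4.18 and 7.68 times in WT libraries. These ratios come from values per length, and the comparison was made after the values were seen. Itgb1, the beta chain that pairs with CD49a and with many other alpha chains, was higher in both KO-labelled libraries, at 186 and 131 FPKM against 106 and 86.7 FPKM in WT libraries (log2 fold change 0.70, SE 0.27, limma adjusted p = 0.866). The genes of its collagen ligand, Col4a1 and Col4a2, stood at 0.215 to 3.40 FPKM, with the highest values of both in KO-labelled replicate 1. Itga1 exons share 685 bases with a second annotated gene model on the same strand, so its value is uncertain.

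Cd69, an early activation gene as well as a retention gene, was the most abundant member in all 4 libraries. It had 437 and 1203 FPKM in KO-labelled libraries, against 997 and 1565 FPKM in WT libraries, and the groups overlapped. The log2 fold change was -0.78 (SE 0.47, limma adjusted p = 0.866), and it was -0.05 without KO-labelled replicate 1, which held the lowest value, -1.51 without KO-labelled replicate 2 and -0.46 without WT replicate 2. S1pr1, whose protein CD69 removes from the surface, had 208 and 264 FPKM in KO-labelled libraries and 221 and 288 FPKM in WT libraries.

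Cxcr6 had 53.1 and 77.0 FPKM in KO-labelled libraries and 54.3 and 75.2 FPKM in WT libraries, means of 65.1 ± 16.9 and 64.8 ± 14.8 (SD, n = 2 each). The spread within each group exceeded the difference between them, and the 95% interval of the log2 fold change ran from -0.66 to 0.66. In both groups replicate 2 was the higher library. Cxcr6 was the one gene of the 3 windows with adjoining SMAD and RUNX matches. Cxcl16, the gene of the CXCR6 ligand, stood at 5.71 and 4.13 FPKM in KO-labelled libraries and 6.67 and 3.63 FPKM in WT libraries, with exons that overlap Zmynd15 on the opposite strand.

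P2rx7 had 1.46 and 4.47 FPKM in KO-labelled libraries, against 5.97 and 9.81 FPKM in WT libraries. The groups did not overlap, but the KO-labelled libraries differed from each other 3.05-fold. Its fold change on the log2 scale was -1.24, with an SE of 0.47 and limits of -2.31 and -0.17 (limma adjusted p = 0.866), and it was -0.66 without KO-labelled replicate 1. Art2b, which encodes an enzyme that activates P2RX7 on mouse T cells by ADP-ribosylation, ran the other way. It had 9.07 and 7.33 FPKM in KO-labelled libraries and 2.22 and 4.69 FPKM in WT libraries (log2 fold change 1.10, SE 0.39, limma adjusted p = 0.866). Art2b has a paralog, Art2a, and how reads were divided between them is not known. Among the other genes that handle extracellular ATP and NAD, Panx1, a channel that releases ATP, had 20.8 and 19.7 FPKM in KO-labelled libraries and 18.6 and 24.8 FPKM in WT libraries. Cd38, an NAD-consuming enzyme gene, had 64.8 and 48.6 FPKM in KO-labelled libraries and 54.5 and 39.1 FPKM in WT libraries, so both of these genes overlapped between groups.

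Ahr, the ligand-activated transcription factor that maintains resident T cells in mouse skin and gut, had the tightest values of the set. It stood at 5.24 and 5.28 FPKM in KO-labelled libraries, against 6.30 and 6.95 FPKM in WT libraries, with no overlap and a log2 fold change of -0.28 (SE 0.32, limma adjusted p = 0.893). Its dimer partner gene Arnt had 12.9 and 12.8 FPKM in KO-labelled libraries and 15.8 and 11.8 FPKM in WT libraries. The classical AHR target genes were at or near 0: Cyp1b1 was listed at 0 in all 4 libraries, and Cyp1a1 and Ahrr were above 0 only in KO-labelled replicate 1, at 0.0932 and 0.369 FPKM. Tiparp, another AHR target gene that also responds to other signals, had 26.3 and 39.5 FPKM in KO-labelled libraries and 27.1 and 34.7 FPKM in WT libraries. Nqo1, a quinone reductase gene, had 3.91 and 0 FPKM in KO-labelled libraries and 0.650 and 0 FPKM in WT libraries. Exons of Ahr overlap a non-coding gene on the opposite strand by 127 bases, which the reads cannot separate if they are unstranded.

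Crtam, Qpct and Inpp4b had levels close to each other and differed little between groups. Crtam, an adhesion receptor gene of activated T cells, had 22.2 and 18.2 FPKM in KO-labelled libraries and 19.1 and 24.3 FPKM in WT libraries. Its ligand gene Cadm1 was at 0.225 FPKM or below in every library. Qpct, which encodes glutaminyl cyclase, had 20.7 and 15.6 FPKM in KO-labelled libraries, values that enclosed the 18.9 and 18.9 FPKM of the WT libraries. Inpp4b, a phosphoinositide phosphatase gene, had 17.9 and 15.8 FPKM in KO-labelled libraries, just under the 18.3 and 18.1 FPKM of the WT libraries; its window is the one of the 3 with AHR matches. Their log2 fold changes were -0.10, -0.07 and -0.11, with SEs of 0.27 to 0.28. The related phosphatase gene Inpp5d had a log2 fold change of 0.08, and Qpctl, the paralog of Qpct, 0.41, with exons that overlap Fbxo46 on the opposite strand.

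**Figure D2:**
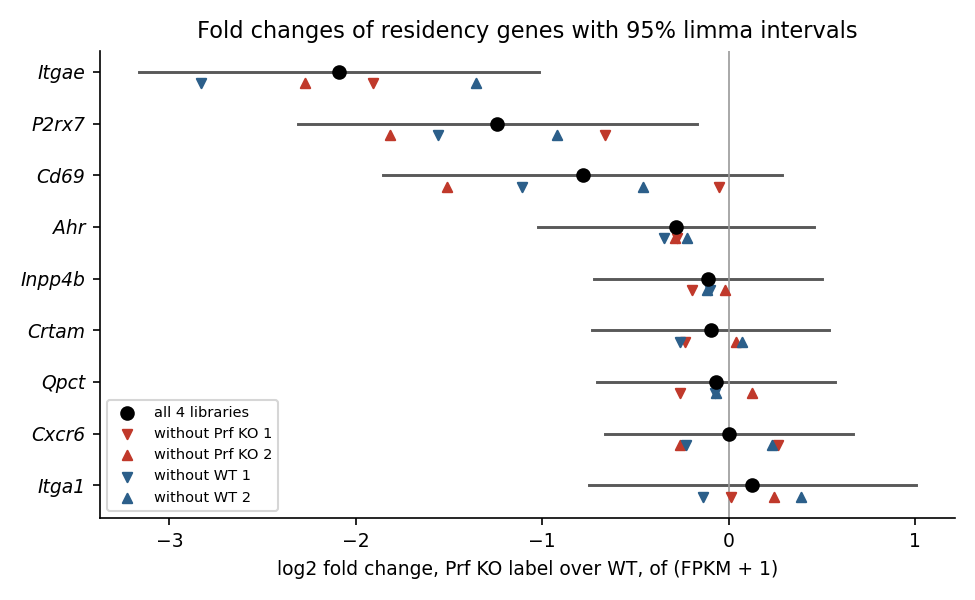
Log2 fold changes (KO-labelled over WT, of FPKM + 1) of the 9 genes, with 95% limma intervals as bars, and the values with 1 library left out as triangles. Itgae stays between -2.83 and -1.35 in all of these, while Cd69 moves to -0.05 without KO-labelled replicate 1, and Itga1, Cxcr6, Crtam and Qpct lie on either side of 0.

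Set side by side, 4 of the 9 genes (Itgae, P2rx7, Ahr and Inpp4b) were lower in both KO-labelled libraries than in both WT libraries, and 0 were higher in both. Over all tested genes these shares were 21.9% and 13.9%. After upper-quartile or median rescaling of the libraries Inpp4b overlapped and 3 remained lower, beside 18.5% and 20.1% of all tested genes under these scalings. The median log2 fold change of the 9 was -0.11, against -0.08 over all tested genes, so the median of the set was near that of the table. The lowest value of the 4 libraries was in KO-labelled replicate 1 for 5 of the 9, against 43.6% of all tested genes. The highest was in WT replicate 2 for 6 of the 9, against 24.8%. Replicate spread was as uneven as the fold changes: the within-group SD on the log2 scale was 0.80 for Cd69, 0.76 for Itgae and 0.66 for P2rx7, and 0.06 to 0.35 for the other 6, beside a median of 0.30 over all tested genes.

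By level per length, the order of the 9 means was Cd69, Cxcr6, Crtam, Qpct, Inpp4b, Itgae, Ahr, P2rx7 and Itga1. Cd69 and Cxcr6 kept the first and second places in every library, and each lay wholly above the next gene. The remaining neighbours overlapped. Itgae moved most in rank, with rank 8 and rank 7 of the 9 in KO-labelled replicates 1 and 2, against rank 6 and rank 3 in WT replicates 1 and 2.

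The 3 non-member genes whose pattern over the 4 libraries lay nearest to that of Itgae were Cdkn3, Ngp and Cenpn, at Euclidean distances of 0.336, 0.857 and 0.930 on the mean-centred log2 scale. P2rx7 was the nearest member, at 1.18. Cdkn3, a cell cycle phosphatase gene, had 0 and 0.438 FPKM in KO-labelled libraries, against 1.78 and 5.51 FPKM in WT libraries. Ngp, a neutrophil granule gene, had 2.57 and 4.39 FPKM in KO-labelled libraries, against 4.52 and 21.6 FPKM in WT libraries. Cenpn, a centromere gene, had 0.416 and 0.909 FPKM in KO-labelled libraries, against 2.81 and 4.41 FPKM in WT libraries. With 4 libraries such likeness is a description only.

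Cells other than CD8 T cells can carry these genes, CD103 on dendritic cells and regulatory T cells among them, so their markers were read beside Itgae. Summed markers of dendritic cells came to 11.4 and 11.0 FPKM in KO-labelled libraries and 16.8 and 5.17 FPKM in WT libraries, lowest in the WT library where Itgae was highest; 0 of 2 tested markers were lower in both KO-labelled libraries, and Xcr1, which marks CD103+ dendritic cells, was at 0.469 FPKM or below. Foxp3, the regulatory T cell factor, was at 0.011 FPKM or below in every library. Its exons share 853 bases with Flicr on the same strand, so its value is uncertain. The summed list of 4 genes had 3.51 and 7.10 FPKM in KO-labelled and 6.40 and 6.68 FPKM in WT libraries. Both tested genes of that list, Il2ra and Ikzf2, were lower in both KO-labelled libraries, as were 21.9% of all tested genes. Their log2 fold changes were small beside their errors, at -0.42 (SE 0.40) and -0.25 (SE 0.43). Summed gamma delta and IL-17 T cell markers were 2.95 and 1.01 FPKM in KO-labelled libraries and 1.39 and 4.31 FPKM in WT libraries, with 0 of 1 tested gene lower in both. The part of any of these cells in the Itgae difference was not tested.

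Neutrophil markers ran in the same direction as Itgae: 5 of 6 were lower in both KO-labelled libraries. Over all tested genes 21.9% were lower and 13.9% higher in both KO-labelled libraries. The neutrophil sum was 102 and 142 FPKM in KO-labelled libraries, against 226 and 237 FPKM in WT libraries. Camp, a neutrophil granule gene, was at 0 in KO-labelled replicate 1. Their part in the Itgae difference was not tested. Liver endothelial markers, which accompany sinusoidal cells, summed to 273 and 60.7 FPKM in KO-labelled libraries and 136 and 23.8 FPKM in WT libraries, with 0 of 7 lower and 0 of 7 higher in both. Their highest sum was in KO-labelled replicate 1, where Cd69 and P2rx7 were lowest, and their part in those values was not tested. NK cell and ILC1 markers matter because liver ILC1 express Itga1 and Cxcr6. They summed to 32.4 and 22.5 FPKM in KO-labelled libraries and 60.9 and 21.2 FPKM in WT libraries. Of 2 tested genes of the list, 0 were lower in both KO-labelled libraries. Most of each sum came from Klre1, at 29.6 and 19.4 FPKM in KO-labelled libraries and 57.2 and 20.04 FPKM in WT libraries. Klrb1c was above 0 in every library, at 0.946 to 2.903 FPKM. Its exons share 413 bases with another gene model on the same strand, so its value is uncertain. Ncr1 was at 0 in 3 of 4 libraries. B cell markers summed to 22.9 and 58.0 FPKM in KO-labelled libraries and 37.6 and 45.9 FPKM in WT libraries, lowest in KO-labelled replicate 1. Kupffer cell and macrophage markers matter because macrophages express P2rx7. They summed to 49.997 and 25.7 FPKM in KO-labelled libraries and 18.3 and 20.1 FPKM in WT libraries. Csf1r alone gave 38.2 and 24.3 FPKM in KO-labelled libraries and 17.1 and 17.1 FPKM in WT libraries. Exons of Csf1r overlap Hmgxb3 on the opposite strand. Of 3 tested genes of the list, 1 was lower and 2 were higher in both KO-labelled libraries. The part of these cells in the P2rx7 values was not tested.

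**Figure D3:**
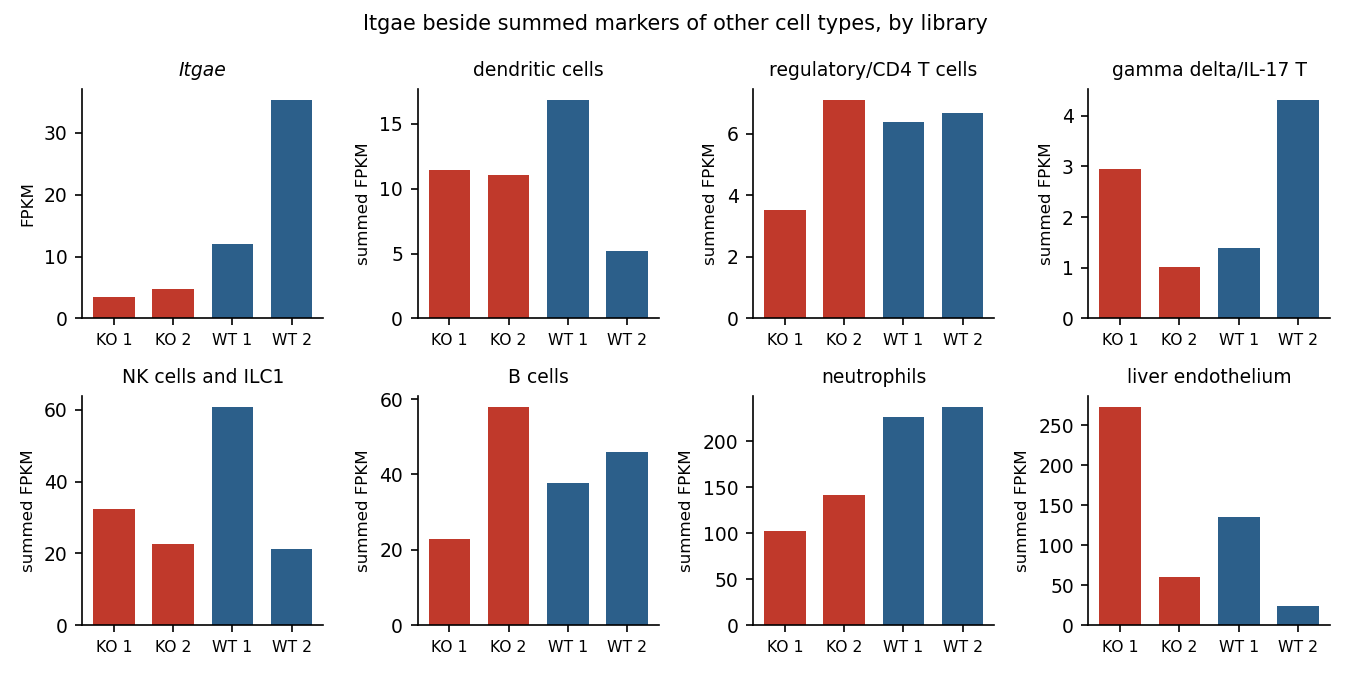
Bars give Itgae FPKM and the summed FPKM of marker lists of other cell types in KO-labelled replicates 1 and 2 (red) and WT replicates 1 and 2 (blue), each on its own linear axis from 0. Among the 7 lists only the neutrophil sums, 102 and 142 against 226 and 237, are lower in both KO-labelled libraries, as Itgae is.

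Other genes described as higher in resident than in circulating memory CD8 T cells lay on both sides of equality. Of 23 measured 22 were tested and 0 passed in either direction. In both KO-labelled libraries 3 were lower (Ctla4, Nr4a2 and Tmem123) and 3 higher (Xcl1, Sik1 and Runx3) than in both WT libraries. Over all tested genes 21.9% were lower and 13.9% higher in this way. The median log2 fold change of the list was -0.14. Ctla4, an inhibitory receptor gene, had 28.7 and 42.9 FPKM in KO-labelled libraries, against 56.4 and 64.5 FPKM in WT libraries (log2 fold change -0.76, SE 0.28). Runx3, a transcription factor needed for CD103 expression in CD8 T cells, had 100.4 and 68.1 FPKM in KO-labelled libraries, against 53.3 and 50.3 FPKM in WT libraries (log2 fold change 0.67, SE 0.27). Xcl1, a chemokine gene, had a log2 fold change of 0.49 and Nr4a2, a nuclear receptor gene, -0.46. Prdm1, which encodes Blimp-1, the partner of Hobit in resident lymphocytes, had 14.7 and 15.7 FPKM in KO-labelled libraries and 14.7 and 13.5 FPKM in WT libraries. Exons of Xcl1 overlap a non-coding gene on the opposite strand.

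Genes of the TGF-beta pathway, which induces CD103, gave 0 of 9 passing the test, with a median log2 fold change of 0.0011. Of the 9, 0 were lower and 0 higher in both KO-labelled libraries, against 21.9% and 13.9% of all tested genes. The receptor gene Tgfbr2 had 77.0 and 62.0 FPKM in KO-labelled libraries and 71.6 and 68.9 FPKM in WT libraries. Tgfb1, the ligand gene, had 6.17 and 0.723 FPKM in KO-labelled libraries and 0.157 and 0.826 FPKM in WT libraries, with a single high library and a log2 fold change of 1.27 (SE 0.71). Smad4 and Ski, a mediator and an inhibitor of the pathway, had log2 fold changes of -0.74 and -0.47, and the inhibitor gene Smad7 0.48.

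Among genes higher in circulating cells, 17 of 18 were tested and 0 passed. In both KO-labelled libraries 4 were higher (S1pr5, Eomes, Tcf7 and Kcnj8) and 3 lower (Ccr7, Rasgrp2 and Tlr1), with a median log2 fold change of 0.03. The shares over all tested genes were 13.9% higher and 21.9% lower. S1pr5, an exit receptor gene, had 10.6 and 10.6 FPKM in KO-labelled libraries, against 7.10 and 4.11 FPKM in WT libraries (log2 fold change 0.85, SE 0.35), and its exons overlap a gene model on the opposite strand. Eomes, a transcription factor that restrains CD103, had 14.1 and 11.8 FPKM in KO-labelled libraries, against 9.07 and 9.57 FPKM in WT libraries. Kcnj8, a potassium channel gene, and Tlr1 had log2 fold changes of 0.90 and -0.60. Klf2, which drives S1pr1 and opposes residency, had 1131 and 981 FPKM in KO-labelled libraries and 702 and 1088 FPKM in WT libraries, with overlapping groups. Of the partner, ligand and target genes set beside the members above, 18 of 22 were tested and 0 passed, with a median of 0.16. In both KO-labelled libraries 0 were lower and 4 higher, Itgb1, Art2b and Qpctl among them, against 21.9% and 13.9% of all tested genes.

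**Figure D4:**
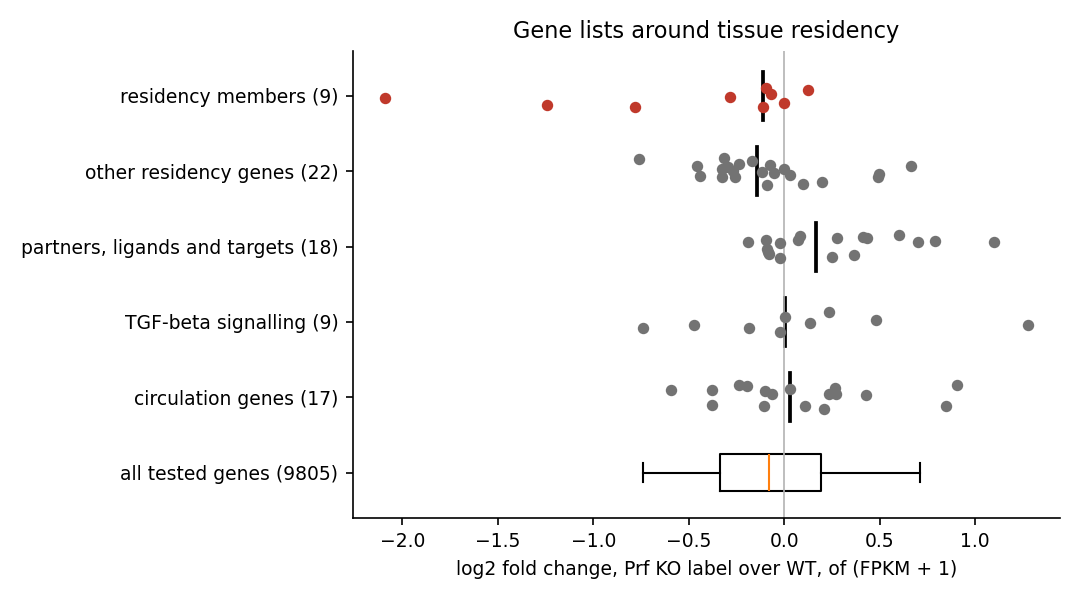
Log2 fold changes (KO-labelled over WT, of FPKM + 1) of the tested genes of each list, 1 point a gene with a bar at the median, above a box of all 9805 tested genes (quartiles, median and whiskers from the 5th to the 95th percentile). Itgae and P2rx7 lie farthest to the left, and the medians of the 5 lists lie between -0.14 and 0.16.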

How the data were processed

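RNA from 4 samples was prepared for sequencing with Illumina's TruSeq kit, per the labels' protocols. The reads were taken to be unstranded, which was not checked. Bowtie 0.12.2 and the build mm8 are named, with no role, per the submitters' processing notes; no source used here gives how the authors quantified genes. Each symbol had 1 deposited value per library, with no unit named, and these were read as FPKM: they were not whole, the columns summed to 334493 to 392785, and among weak genes the median smallest value above 0 was 0.110 for the shortest transcripts (median 736 bases) and 0.0623 for the longest (median 3737 bases).

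Values were analysed as log2(FPKM + 1) for the 9805 genes averaging 1 or more, all 9 matched members among them, with limma 3.58.1 in R 4.3.3 (two-sided moderated test, trended variance, Benjamini-Hochberg adjustment over all tested genes, threshold 0.05, no replicate block). The procedure was tested on simulated data. The members, lists and tests were chosen with earlier results of these data known. All members were named, with up to 4 genes of each list by smallest p, partners of members, and the 3 genes nearest to Itgae; list genes without overlap, S1pr1, Klf2, Cdh1, Prdm1, Tgfbr2, Cd8a and single markers were chosen after their values were seen. A gene of these lists is not reported here. Settings tried were pseudocounts of 0.1 and 5, no filter or a minimum mean of 5, upper-quartile and median scaling, the replicate block, no trend, robust moderation and leaving out each library. Exon overlaps came from GENCODE annotation of a later build, so no coordinates of it are given. Figures were drawn with matplotlib 3.10.9.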

Additional observations from a re-analysis of the deposited data

How the results depend on the processing

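No member passed the adjusted threshold under any of the 13 other settings, and the smallest adjusted p of a member in any of them was 0.115. Of 116 member fold changes under these settings, 109 kept their sign and 7 did not, all of these 7 in genes with log2 fold changes between -0.10 and 0.13: with 1 library left out, Itga1 ranged from -0.14 to 0.39, Cxcr6 from -0.26 to 0.26, Crtam from -0.26 to 0.069 and Qpct from -0.26 to 0.13, and Qpct was 0.0083 after upper-quartile scaling. Itgae, P2rx7, Cd69, Ahr and Inpp4b kept a negative sign in all of them. Leaving out 1 library gave 0 to 1 genes called in the table (Atp5k without WT replicate 2 and H2-Q6 without KO-labelled replicate 2, named after their values were seen), 0 members called, 4 to 7 members lower and 0 to 1 higher without overlap, a member median of -0.26 to -0.12, and Prf1 at -0.36 to -0.22; with 3 libraries groups overlap less often by construction. Members lower without overlap were 6 of 9 without KO-labelled replicate 1 (34.2% of all tested genes), 6 of 9 without KO-labelled replicate 2 (48.9%), 7 of 9 without WT replicate 1 (36.3%) and 4 of 9 without WT replicate 2 (37.6%). With the replicate block 0 genes and 0 members were called. The numbers were not taken to pair the samples, since the labels do not say so and same-numbered deviations correlated at 0.068 over 2 pairs. Differences of the size of the standard errors, 0.34 in the median gene, were not detectable with 2 libraries a group.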
